A study of Mus musculus with 4 samples.

Results

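The proteasome genes of mouse pancreatic islets were followed in 4 RNA libraries, 2 from wild-type mice and 2 from mice whose beta cells overexpress the microRNAs miR-29a and miR-29b-1 from a transgene. The genes were chosen by name and not by their values: protein-coding genes whose symbols begin with Psma, Psmb, Psmc, Psmd, Psme, Psmf or Psmg and a digit, without the immunoproteasome genes Psmb8, Psmb9 and Psmb10. The rule took 47 of the 54532 genes in the table. Of these, 14 encode the core particle (Psma1 to Psma7 and Psmb1 to Psmb7) and 17 the regulatory particle (Psmc1 to Psmc6 and 11 Psmd genes). The other 16 encode assembly chaperones, activators, an inhibitor, tissue-restricted variants of core subunits, and Psmc3ip, whose product works in meiotic recombination and shares only its name with the family. All mice were C57BL/6 males aged 10 to 12 weeks, and each genotype gave a library numbered 1 and a library numbered 2. The labels name neither the promoter of the transgene nor whether a library held the islets of a single mouse or of several, so the p-values rest on the spread among these libraries alone, and that spread may be technical.

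The proteasome degrades proteins that carry chains of ubiquitin. Its core is a barrel in which rings of alpha subunits guard the entrance and rings of beta subunits hold the cutting sites, while the regulatory particle on its end recognises ubiquitin, removes it, and uses a ring of ATPases to unfold the substrate and push it in. Beta cells make proinsulin in large amounts, and the proteasome clears the part of it that misfolds and is returned from the endoplasmic reticulum. miR-29a and miR-29b are microRNAs with the same seed, the stretch that pairs with messenger RNAs.

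Values are FPKM, in which fragment counts are divided by gene length and by a total set for each library. Within each genotype they are given in the order of the library numbers, and 4 values in a row run from wild type 1 and 2 to transgenic 1 and 2. Reads recovered from them summed to between 21670854 and 27080907 in genes per library. The totals that the FPKM imply were not these sums. They were 25927074 against 27080907 reads in wild type 2, and 25780368 against 23654135 in transgenic 1. The comparison took the 12716 genes that reached 1 FPKM in 2 or more libraries, among them 45 of the 47 proteasome genes. The compared proteasome genes had between 35 and 3901 reads in a library. All 8 beta cell markers examined were above the level compared and took 19.5% to 33.6% of the reads. Of 16 markers of acinar cells, the exocrine cells around islets, 14 were above that level, and the list summed to 5683 (wild type) and 7563 FPKM (transgenic) in the libraries numbered 1, and to 1231 and 2044 in those numbered 2. In RNA of whole islets, fewer cells of a type and less RNA per cell cannot be told apart.

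Together the 47 genes took 0.252%, 0.233%, 0.263% and 0.241% of the reads in the 4 libraries. The exact 95% binomial intervals, which cover counting error only, were 0.250 to 0.254, 0.231 to 0.235, 0.261 to 0.266 and 0.239 to 0.243. Without the reads of Ins1, Ins2 and Iapp, the most abundant beta cell transcripts, these shares were 0.346%, 0.350%, 0.326% and 0.355%. The genotypes overlapped on both measures.

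**Figure D1:**
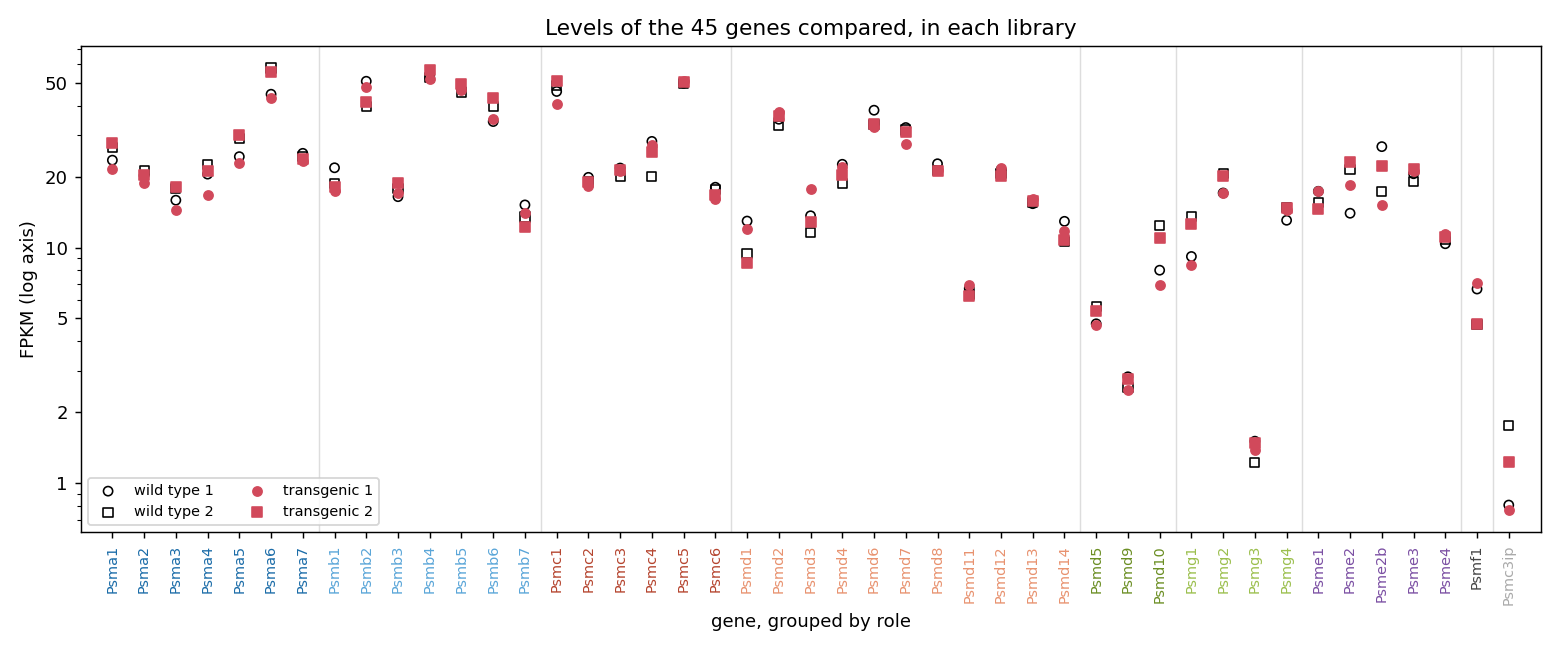
FPKM on a log axis of the 45 proteasome genes compared, grouped by role, with 1 point per library (open, wild type; filled, transgenic). Gene names are blue for the core, red and orange for the regulatory particle, green for assembly chaperones and purple for activators. Core and regulatory genes lie mostly between 10 and 60 FPKM, and circles (libraries numbered 1) and squares (numbered 2) separate for genes such as Psma6, Psmd1, Psmd10 and Psmf1, while open and filled symbols overlap for most genes.

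In the alpha ring of the core, Psma6 was the most abundant per length of gene model, with 44.8 and 57.9 FPKM in wild type 1 and 2, and transgenic 1 and 2 had 43.3 and 55.8. Psma3 was the least abundant per length of gene model, at 15.9 and 17.8 against 14.5 and 18.1. In both genes the libraries numbered 2 were above those numbered 1, and the genotypes overlapped. Over the 4 libraries their means were 16.6 ± 1.68 (SD) for Psma3 and 50.4 ± 7.44 for Psma6. Between them lay Psma5 (26.6 ± 3.60), Psma1 (24.9 ± 2.91), Psma7 (24.1 ± 0.77), Psma4 (20.2 ± 2.49) and Psma2 (20.1 ± 0.98). The ranges of mean ± SD overlapped among the first 3 of these, although Psma5 lay above Psma1 in every library. Those of Psma4 and Psma2 overlapped too, and their order differed between libraries. Every value of Psma7 lay above every value of Psma4.

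In the beta ring, Psmb5, Psmb6 and Psmb7 encode the subunits with cutting sites of chymotrypsin-like, caspase-like and trypsin-like specificity. Psmb5 lay at 47.1 and 45.4 FPKM in the wild-type libraries, against 46.5 and 49.7 in the transgenic ones. Psmb6 lay at 34.3 and 39.7 against 35.1 and 43.3, and Psmb7 at 15.2 and 13.5 against 14.0 and 12.3. Per length of gene model, the 3 catalytic genes thus kept the same order in every library. Psmb4, a structural subunit, had the highest mean of all core and regulatory genes on this scale (53.5 ± 2.07), with values of 52.7, 52.9, 51.8 and 56.5. The other structural beta genes were Psmb2 (45.1 ± 5.29), Psmb1 (18.98 ± 1.97) and Psmb3 (17.5 ± 1.02).

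In the regulatory particle, the ATPase gene Psmc5 was the steadiest of its ring, at 49.9 and 49.9 FPKM in the wild-type libraries, against 51.0 and 50.5 in the transgenic ones. Psmc4, another subunit of that ring, lay at 28.2 and 19.97 against 27.2 and 25.5, and wild type 2 stood below the other libraries. The rest of the ring comprised Psmc1 (46.6 ± 4.40), Psmc3 (21.1 ± 0.77), Psmc2 (19.02 ± 0.69) and Psmc6 (17.1 ± 0.88). Among the non-ATPase genes, Psmd2, a scaffold of the base, lay at 35.1 and 33.1 against 37.5 and 36.2. Psmd14, the deubiquitinase that removes ubiquitin chains from substrates, lay at 12.9 and 10.6 against 11.7 and 10.8. Psmd11, a subunit of the lid, was lowest of the regulatory particle at 6.70 and 6.32 against 6.95 and 6.23. The remaining non-ATPase genes had means of 34.4 ± 2.61 (Psmd6), 30.6 ± 2.08 (Psmd7), 21.6 ± 0.75 (Psmd8), 20.98 ± 0.70 (Psmd12), 20.9 ± 1.74 (Psmd4), 15.7 ± 0.28 (Psmd13), 13.96 ± 2.67 (Psmd3) and 10.75 ± 2.08 (Psmd1).

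Core and regulatory genes were compared by the median level per library, as a description with no test. The core median was 23.9, 25.5, 22.2 and 25.8 FPKM, and the regulatory median was 21.8, 19.97, 21.3 and 20.3. The core to regulatory ratio was thus 1.10 and 1.04 in the libraries numbered 1 and 1.28 and 1.27 in those numbered 2, above 1 in all 4. On the log2(FPKM + 1) scale the difference of medians was 0.21 ± 0.14 (SD over 4 libraries).

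The gene length behind FPKM moved these levels. The sources used here do not say how the deposited length was made. For the core and regulatory genes it was 1.00 to 3.36 times the length of the coding transcript with the longest coding sequence in GENCODE M21. On coding transcript length, chosen after seeing the data, the difference of medians was 0.43 ± 0.23. The core to regulatory ratio was 1.21, 1.70, 1.19 and 1.39 in the same order of libraries. The change was largest for Psma7, which went from 24.1 ± 0.77 FPKM to 81.1 ± 2.59 per coding transcript length and from rank 14 to rank 3 of the 31 genes. Psmb5, whose deposited length equals that of its coding transcript (899 bases), stayed at 47.2 ± 1.82 and went from rank 4 to rank 14. On this scale Psmb6 (89.4 ± 9.85) and Psmb4 (88.2 ± 3.42) led and did not differ beyond their spread, and Psmd6, a lid subunit, led the regulatory particle (69.5 ± 5.26). The ATPase genes Psmc2 (53.6 ± 1.94) and Psmc5 (53.3 ± 0.58) likewise did not differ beyond their spread. Psmd11 stayed last, at 14.7 ± 0.75. Which transcripts the islets use was not measured, so neither length is established as the right one.

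**Figure D2:**
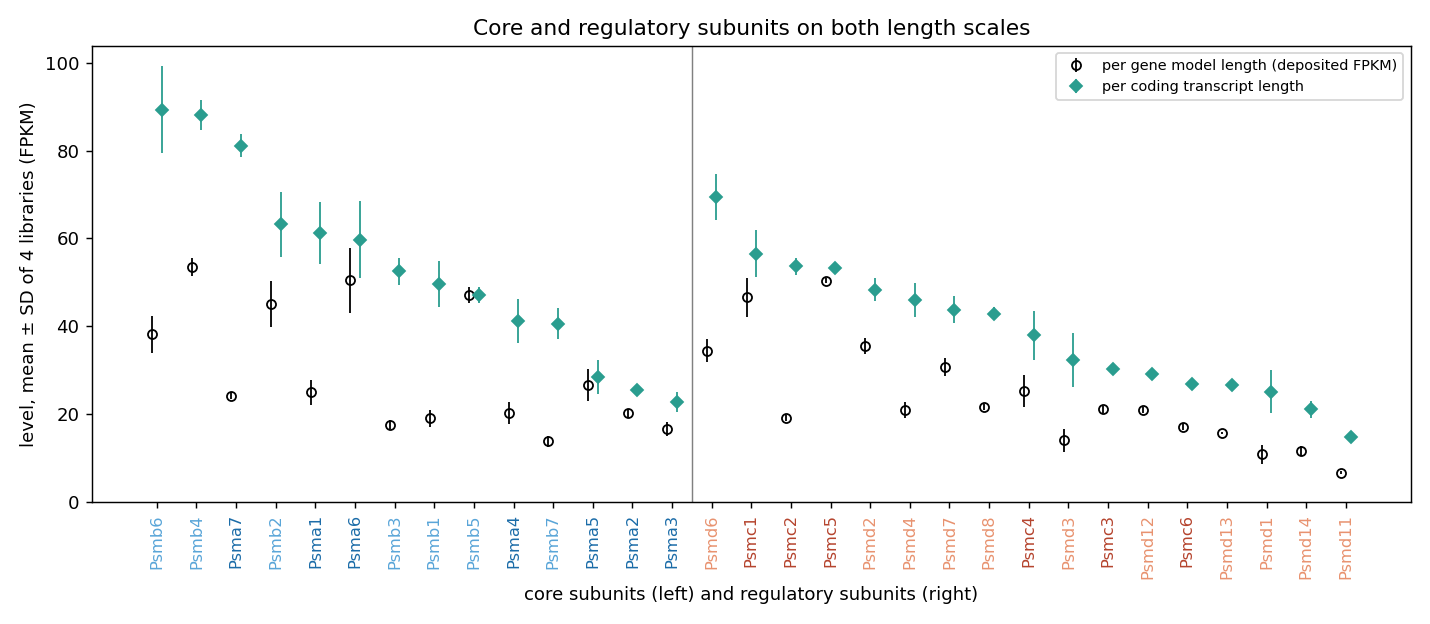
Mean and SD over 4 libraries of each core (left) and regulatory (right) gene, per gene model length as deposited (open circles) and per coding transcript length (diamonds), in FPKM. Psma7 rises from 24.1 to 81.1 and Psmb5 stays at 47.2, while Psmd11 is lowest on both scales.

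Most assembly chaperones were less abundant than most of the subunits they help to join. Psmg1 and Psmg2, which pair to start the alpha ring, lay at 9.16 and 13.5 FPKM (Psmg1) and 17.1 and 20.7 (Psmg2) in wild type 1 and 2. In transgenic 1 and 2 they lay at 8.40 and 12.5 (Psmg1) and 16.995 and 20.04 (Psmg2). Psmg4 had a mean of 14.2 ± 0.80 and its partner Psmg3 one of 1.40 ± 0.13. Per coding transcript length Psmg4 stayed at 14.2 ± 0.80 and Psmg3 was at 4.58 ± 0.42. Psmg3 also overlaps another coding gene, Gm26938. The chaperones of the ATPase ring, whose Psmd symbols do not mark them as subunits, were Psmd10 (gankyrin, 9.58 ± 2.54), Psmd5 (5.11 ± 0.47) and Psmd9 (2.65 ± 0.17). The median of the 7 chaperone genes was 9.58 FPKM, against 24.5 for core and 20.98 for regulatory genes, and per coding transcript length it was 9.84 against 51.1 and 37.9.

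The activators bind the ends of the core in place of the regulatory particle. Psme3, the nuclear activator PA28 gamma, lay at 20.6 and 19.0 FPKM in the wild-type libraries, against 21.1 and 21.5 in the transgenic ones. Psme4, the large activator PA200, lay at 10.4 and 10.9 against 11.4 and 11.1. Psme1 (PA28 alpha) lay at 17.3 and 15.6 against 17.4 and 14.5, and its partner Psme2 (PA28 beta) at 14.0 and 21.5 against 18.4 and 23.0. Psme2b (26.8, 17.3, 15.1 and 22.3) is a near copy of Psme2, and the read counting can split reads between them. Psme2 took 52.4% of the reads of the pair in wild type 1 but 72.3%, 71.9% and 68.5% in wild type 2, transgenic 1 and transgenic 2. The pair as a whole was more even, at 47.1, 52.4, 45.03 and 59.3 CPM (reads scaled to the library totals that the FPKM imply). Values of Psme2 or Psme2b alone are therefore uncertain. Psmf1, the inhibitor PI31, lay at 6.67 and 4.71 FPKM against 7.09 and 4.76.

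The 2 genes below the level compared were Psma8, the alpha subunit of testis, and Psmb11, the beta subunit of the thymus. Psma8 had 1 read in wild type 1 and in transgenic 2 and 0 in the other libraries, and Psmb11 had 2 reads in each wild-type library and 0 in each transgenic one. A count of 0 allows up to 3 reads, so neither gene differed detectably between genotypes at this depth. Psmc3ip had 35, 83, 36 and 47 reads, more in both libraries numbered 2.

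Transgenic and wild-type islets were compared to ask whether more miR-29 in beta cells goes with other proteasome transcript levels, and 0 of the proteasome genes passed the test. Fold changes are differences of log2(FPKM + 1), which understate changes of low genes, and were tested with limma over all genes compared, with Benjamini-Hochberg adjustment. Limma called 0 of the 45 at an adjusted p under 0.05, where it called 0% of all genes compared. At an unadjusted p under 0.05 it had 0 of the 45, where 0.653% of all genes compared (83) had one. Voom, run on recovered reads with genotype as its only term, called 0 genes too. The fold changes of the 45 ran from -0.22 to 0.24 with a median of -0.03, beside a median of 0.01 over all genes compared. Their standard errors had a median of 0.16 (n = 2 per group). The 95% intervals of 44 of the 45 lay between -1 and 1 on the log2 scale, and that of Psme2b reached -1.03. This fit has genotype as its only term, so its spread includes the difference between library numbers described below. Changes smaller than these intervals cannot be told from no change in this fit.

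The members with the smallest p in each direction are described here, the higher ones first. Psmd3, a lid subunit (chromosome 11, 98682554 to 98695979), lay at 13.6 and 11.6 FPKM in the wild-type libraries, against 17.8 and 12.8 in the transgenic ones, with transgenic 1 above the rest and the genotypes overlapping. Its fold change was 0.24 ± 0.21 (standard error; limma, adjusted p = 1.00), higher in both numbers by 0.36 and 0.13. Psme2 had a fold change of 0.23 ± 0.26 and Psme3 one of 0.10 ± 0.14. Psmd2 (chromosome 16, 20651652 to 20663414) had 0.11 ± 0.15, and both of its transgenic values lay above both wild-type ones.

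Among the lower ones, Psmb1, a structural beta subunit (chromosome 17, 15475021 to 15499751), lay at 21.8 and 18.7 FPKM in the wild-type libraries, against 17.3 and 18.1 in the transgenic ones. Wild type 1 stood above the others, and the fold change was -0.18 ± 0.15 (limma, adjusted p = 1.00), with -0.32 in number 1 and -0.04 in number 2. Psma4, an alpha subunit, lay at 20.5 and 22.6 against 16.7 and 21.1, and transgenic 1 stood below the others. Its fold change was -0.18 ± 0.18. Psmd7, a lid subunit that pairs with Psmd14, had -0.12 ± 0.15 and the ATPase gene Psmc6 -0.11 ± 0.13. Psmb5 had 0.05 ± 0.15. Every one of these genes had an adjusted p of 1.00 in limma.

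The genotypes did not overlap in 11 of the 45, where 21.3% of all genes compared did not overlap. Both transgenic values were higher for 5 of the 45 (Psmc5, Psmd2, Psmd13, Psme3 and Psme4), against 12.2% of all genes, and lower for 6 (Psma7, Psmb1, Psmc2, Psmc6, Psmd7 and Psmd8), against 9.03%. Within the library numbers, 10 of the 45 were higher in transgenic islets of both, against 33.5% of all genes, and 16 were lower in both, against 27.4%. The counts of higher genes thus lay below or near the share over all genes, and those of lower genes above or near it, by amounts of a few genes.

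**Figure D3:**
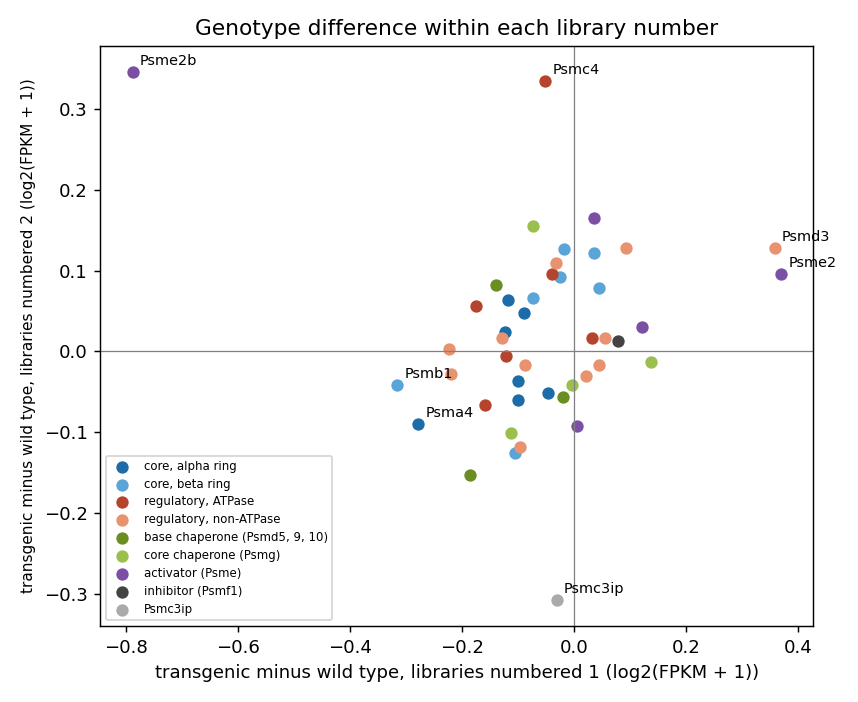
Difference of transgenic from wild type on the log2(FPKM + 1) scale in the libraries numbered 1 (horizontal) and 2 (vertical), 1 point per proteasome gene compared, coloured by role. Most points lie close to 0 on both axes; Psmd3 and Psme2 are higher in both numbers, Psma4 and Psmb1 lower in both, and Psme2b, with 326 to 536 reads as a near copy of Psme2, changes direction.

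Core and regulatory genes did not part by genotype. The median fold change was -0.04 over the 14 core genes and -0.01 over the 17 regulatory genes, a difference of -0.03. That difference was -0.04 in number 1 and 0.02 in number 2. All 7 alpha genes had a fold change below 0, from -0.18 to -0.02, but only 4 of the 7 were lower in both numbers, 4 were below 0 in voom with the library number as a term and a GC curve removed, 3 were below 0 without wild type 2 or without transgenic 1, and none was called by limma. The beta ring had 4 genes above and 3 below 0, the ATPase ring 3 and 3, and the non-ATPase genes 5 and 6. By library number (1, then 2), medians came to -0.10 and -0.04 for the alpha ring, -0.02 and 0.08 for the beta ring, -0.09 and 0.04 for the ATPase ring and -0.03 and 0.00 for the non-ATPase genes.

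A larger difference lay between the libraries numbered 1 and 2, in both genotypes, and here the alpha ring and the non-ATPase genes went in opposite directions. The numbers did not overlap in 28 of the 45, where 66.8% of all genes compared did not overlap. Both libraries numbered 2 were higher in 17 of the 45 (34.4% of all genes) and lower in 11 (32.4%), so the proteasome genes as a whole did not stand out. By role, however, 9 of the 14 core genes were higher in number 2 and 2 were lower, while 1 of the 17 regulatory genes was higher and 7 were lower. Of the alpha ring 6 of 7 were higher and 0 lower, and of the non-ATPase genes 0 of 11 were higher and 6 lower. Regulatory particle genes without a Psm symbol are outside these counts. Among them, Sem1 went the other way and was higher in number 2, by 0.71 (wild type) and 0.76 (transgenic). Adrm1 was lower in number 2, by -0.08 and -0.30, with overlapping numbers. The beta ring (3 higher, 2 lower) and the ATPase ring (1 higher, 1 lower) were mixed. The number is a label of the libraries and not a group of the study, and the difference by role was noticed in these data, so it is given with no test.

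In the alpha ring, Psma5 had 24.3 (wild type) and 22.8 FPKM (transgenic) in number 1, and 29.1 and 30.2 in number 2. Psma1 lay at 23.5 and 21.6 against 26.7 and 27.9. Psma7 was the exception of its ring, with a range from 23.4 to 25.1 over the 4 libraries and overlapping numbers. In the non-ATPase group Psmd1, the other scaffold of the base, lay at 13.0 and 12.0 in number 1 and at 9.41 and 8.59 in number 2, and Psmd4, a ubiquitin receptor, at 22.6 and 22.1 against 18.7 and 20.3. The median difference of number 2 from number 1 was 0.15 (wild type) and 0.32 (transgenic) for the alpha ring and -0.09 and -0.10 for the non-ATPase genes, beside 0.01 and 0.00 over all genes compared.

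Of the 7 chaperone genes 5 were higher in both libraries numbered 2 (Psmd5, Psmd10, Psmg1, Psmg2 and Psmg4), against 34.4% of all genes compared. Of the same 7 genes 0 were lower, against 32.4%. The inhibitor gene Psmf1 was lower in both. Psmd10 lay at 8.01 and 6.92 FPKM in number 1 and 12.4 and 11.02 in number 2, a difference of 0.57 in wild type and 0.60 in transgenic islets. Psmg1 differed by 0.51 and 0.53 and Psmf1 by -0.43 and -0.49. In these 3 genes, named for their large differences between numbers, the differences were close to equal in both genotypes. The genotypes differed by -0.17, -0.11 and 0.05 in the same genes. Psmd1 (-0.42 in wild type and -0.44 in transgenic islets) was also close to equal between genotypes, but not every large difference was. Psmc3ip differed between numbers by 0.61 and 0.34, Psme2 by 0.58 and 0.31, and Psmc4 by -0.48 and -0.09. Psme2b changed direction, with -0.60 and 0.53. Psmd5 differed between numbers by 0.21 and 0.17, Psmg2 by 0.26 and 0.23, and Psmg4 by 0.17 and 0.02 (wild type, then transgenic). Acinar markers were higher in the libraries numbered 1, as given above. The 3 markers of delta and PP cells, other endocrine cells of the islet, were all above the level compared and summed to 6395 (wild type) and 6817 FPKM (transgenic) in number 1 against 13385 and 13483 in number 2. The transcripts of alpha ring genes had a median GC content of 44.98% against 49.7% for non-ATPase genes and for all genes compared. That of the 7 chaperone genes was 50.4%. The part of these values in the difference between numbers was not tested.

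**Figure D4:**
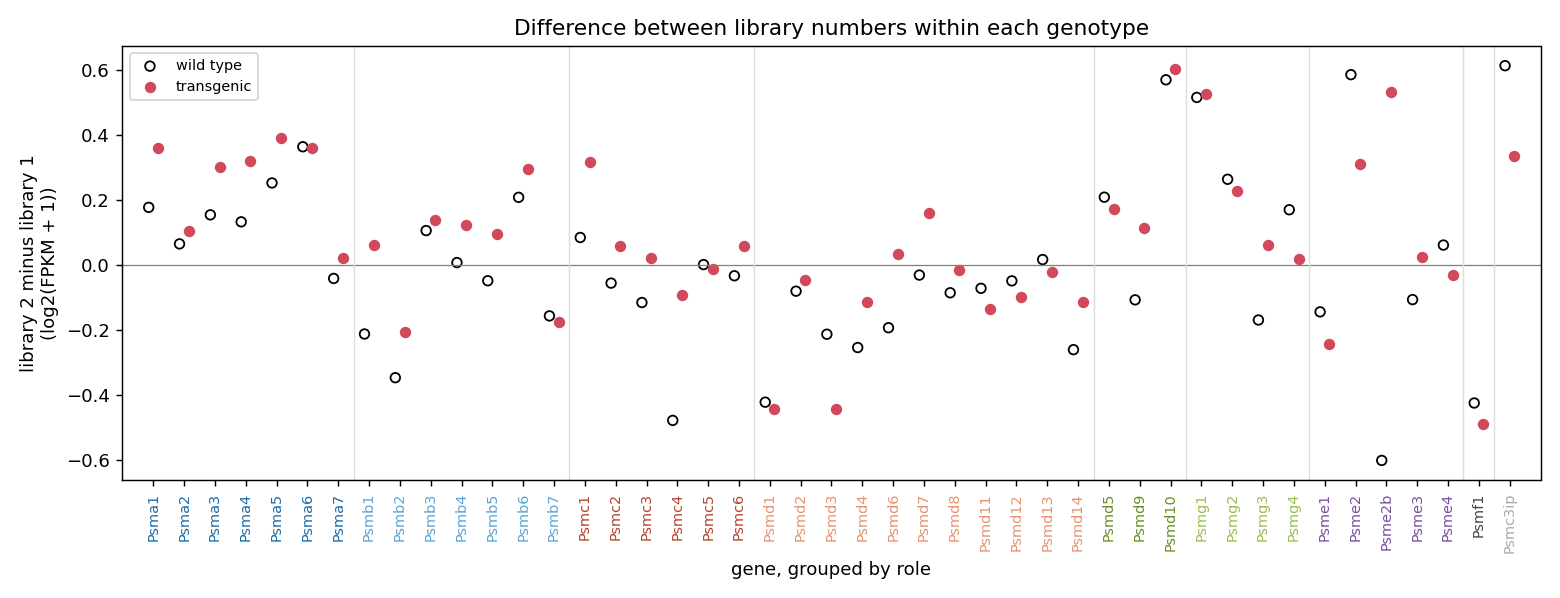
Library 2 minus library 1 on the log2(FPKM + 1) scale for each proteasome gene compared, in wild type (open) and transgenic islets (filled), grouped by role. Psma1 to Psma6 lie above 0 in both genotypes, most Psmd subunit genes lie below, and Psmd10 and Psmg1 lie above 0.5 in both.

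Pairing sites for miR-29 were sought in the 3' untranslated regions of the proteasome genes, since the transgene makes this microRNA. The mature microRNAs are shown with their shared seed, bases 2 to 8, in capitals (RefSeq, GRCm38.p6, minus strand of chromosome 6 at 31062673 to 31062694 and 31063025 to 31063047).
miR-29a-3p: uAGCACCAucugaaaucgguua
miR-29b-3p: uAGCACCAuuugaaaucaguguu
The 7 bases that pair with this seed occurred in 3 of the 45 proteasome genes with a 3' untranslated region of at least 50 bases in GENCODE M21 (6.67%), against 15.6% of 10704 compared genes. The regions of the proteasome genes were also shorter, with a median of 329 bases against 1200. For each gene the coding transcript with the longest such region was searched. The sites are printed with the pairing bases in capitals, read along the messenger RNA.
Psma3: atttaaattctTGGTGCTattctcgtgtg
Psmb7: aTGGTGCTgtgggtggttg
Psme4: actggagttttTGGTGCTgagtaagagcc

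These matches lie in the last exon of each gene, on GRCm38 at chromosome 12, 70994838 to 70994844 (Psma3), chromosome 2, 38588169 to 38588175 (Psmb7) and chromosome 11, 30880245 to 30880251 (Psme4). PSME4 has been reported as a target of miR-29b in human myeloma cells. In islets Psme4 had 2077, 2361, 2458 and 1957 reads and was higher in both transgenic libraries, with a fold change of 0.08 ± 0.13 and a 95% interval of -0.27 to 0.42 (limma, adjusted p = 1.00). Psmb7 was lower in both numbers, by -0.11 and -0.13, with overlapping genotypes, and Psma3 had -0.12 and 0.02. For each of the 3 genes with a site, the fold change over all libraries was smaller than its standard error, so no direction was established. A match is a description and no proof of binding, and RNA of whole islets can hide a fall within beta cells.

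Promoters were searched from 250 bases before to 50 after the start of the gene, on both strands (RefSeq, GRCm38.p6), for 39 of the 47 genes. TGACNNNGC, the core of the element bound by NFE2L1 and related factors, occurred in 6 of the 39 (15.4%), against 17.3% of 8601 compared protein-coding genes. CCAAT occurred in 14 (35.9%, against 42.8%), and CCGGAAGT, a motif of ETS factors, in 9 (23.1%, against 9.87%). Of the 9, 5 were among the 14 regulatory genes searched and 1 among the 11 core genes. Both of the catalytic genes searched, Psmb5 and Psmb6, hold the first motif, shown in capitals with its neighbourhood because these genes carry the cutting sites.
Psmb5: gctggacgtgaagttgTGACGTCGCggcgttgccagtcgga
Psmb6: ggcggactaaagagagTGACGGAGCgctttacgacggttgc

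The windows lie at chr14:54618018-54618058 (Psmb5, minus strand) and chr11:70525332-70525372 (Psmb6, plus strand), with the motif starting 47 and 9 bases before the start of the gene. A match is no evidence of binding.

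Other genes of the pathway gave 0 calls in limma as well. Limma called 0 higher and 0 lower of the 33 genes compared from a list of ubiquitin genes, ubiquitin-activating enzymes, shuttles, proteasome-bound factors and regulators, and 0 of 5 immunoproteasome and peptide transporter genes; none had an unadjusted p under 0.05. Adrm1, the ubiquitin receptor of the regulatory particle that does not carry a Psm symbol, came nearest. It lay at 9.73 and 9.17 FPKM in the wild-type libraries, against 14.4 and 11.5 in the transgenic ones, without overlap, with a fold change of 0.41 ± 0.16 (limma, unadjusted p = 0.0605, adjusted p = 1.00). Ubqln4, a shuttle for ubiquitinated proteins, had 0.26 ± 0.13 and the chaperone gene Bag6 0.29 ± 0.18. Fold changes were below 0 for Rps27a, the gene of a fusion of ubiquitin with a ribosomal protein (-0.42 ± 0.32), Ngly1, the deglycosylase that activates NFE2L1 (-0.19 ± 0.15), and Uba6, an activating enzyme (-0.19 ± 0.20), and none of these was called by limma. Rps27a lay at 99.998 and 60.5 FPKM in the wild-type libraries, against 67.7 and 49.5 in the transgenic ones, and its fold change was -0.063 without wild type 1.

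Nfe2l1, the transcription factor that raises proteasome genes when the proteasome is inhibited, lay at 48.3 and 50.1 FPKM in the wild-type libraries, against 53.6 and 56.4 in the transgenic ones, a fold change of 0.16 ± 0.15 (limma, adjusted p = 1.00). Pomp, the maturation factor of the core, lay at 10.6 and 12.7 against 9.85 and 11.9 and, like the core chaperone Psmg1, was higher in both libraries numbered 2. The immunoproteasome genes other than Psmb8 were chosen after their values were seen. The catalytic subunit of the immunoproteasome that replaces Psmb5, Psmb8, lay at 4.67 and 3.48 against 4.32 and 4.12, below Psmb5 in every library. Psmb9, which replaces Psmb6, lay at 2.97 and 2.76 against 2.58 and 2.67, also below Psmb6 in every library. Psmb10, which replaces Psmb7, lay at 17.4 and 8.01 against 12.9 and 9.85. It was above Psmb7 in wild type 1 (15.2) and below it in the other libraries.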

How the data were processed

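Islets of wild-type and transgenic mice gave RNA for 4 libraries made with an Illumina TruSeq kit, per the labels' protocols. The authors deposited FPKM for 54532 genes with the gene length. The tool HTSeq 0.6.0 and the build GRCm38 are listed, per the submitters' processing notes; the aligner and the use of strand are not given in the sources used here, so reads of overlapping genes (12 of the 47 overlap another coding gene) cannot be told apart. FPKM times length gave, after division by 1 step per library, whole numbers (tolerance 0.001) for 100% of values above 0, used here as reads. The expression test was limma 3.58.1 in R 4.3.3 (eBayes with trend) on log2(FPKM + 1), 2-sided. Benjamini-Hochberg adjustment was over all genes that reached 1 FPKM in 2 or more libraries. The test was tried on simulated data with large changes and no difference between library numbers, which does not show how it performs on small changes. Alternatives used a pseudocount of 0.1, other filters (an FPKM of 5, or none), median scaling, each library left out, the library number as a term, voom on the reads, and a lowess curve (span 0.3) on GC content. The labels do not tie libraries of the same number together. Fold changes were followed through the alternatives for the 4 members per direction with the smallest p, Psme4 and Psmb5. They were also followed for 3 pathway genes per direction, Pomp, Nfe2l1 and Psmb8. Levels are given for any member. The members, lists and this rule were chosen with earlier results of these data known.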

Additional observations from a re-analysis of the deposited data

How the results depend on the processing

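No proteasome gene was called by any of the 12 alternatives run, and the number of all genes called stayed at 0 in 10 of them. With the library number as a term (replicate block), limma on log2(FPKM + 1) called 0 genes. Voom on the recovered reads with that block called 238 genes, and 70 with the GC curve removed as well. Their proteasome count was 0 in both, with the smallest adjusted p for Psmd3 (0.127) in the former. The samples share only a number: deviations of same-numbered libraries from their genotype means correlated at 0.775 across 12716 genes, and 2 pairs do not establish pairing. In the block fit on reads, Rps27a was lower (-0.43 ± 0.09, voom adjusted p = 0.00393, or 0.0328 after removing the GC curve) and Adrm1 higher (0.45 ± 0.10, voom adjusted p = 0.00434, or 0.143 after removing it). In that fit with the GC curve removed, 17 of the 45 proteasome fold changes changed sign. Of the 19 genes followed through the alternatives 3 did: Psmc6 to 0.056, Psmb5 to -0.10 and Psmb8 to -0.018. Of the genes with a miR-29 site, Psmb7 (0.0060) and Psma3 (0.076) also turned above 0, and Psme4 stayed above it (0.16). Leaving out each library in turn gave 0 calls, moved the median of the proteasome genes between -0.03 and 0.03 and the core minus regulatory fold change between -0.14 and 0.13, moved Rps27a between -0.78 and -0.063, changed the sign of 8 to 14 proteasome genes each time, and turned Psme2 (-0.060 to 0.52), Pomp (-0.22 to 0.033) and Psmb8 (-0.12 to 0.22). The core minus regulatory level, 0.21, lay between 0.17 and 0.27 with a library left out and at 0.43 per coding transcript length. That level has no fit, so voom, the block and the GC curve give it no value, and filters on low values leave its genes as they are.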
